A study of Bos taurus with 6 samples.

Results

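Keratins KRT5, KRT7, KRT8, KRT14, KRT15, KRT17, KRT18 and KRT19, the adhesion gene CDH1 and the transcription factor gene TP63 are markers of epithelial cells, and their mRNA levels were examined in cultured bovine fetal fibroblasts (bEFs). They are 10 of the 17663 loci in the expression table, found by gene name. They were chosen by their FPKM and count values in FT and WT cells, which were known when the list was drawn up, so differences between FT and WT cells in these 10 genes are given as a description with no test.

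RNA-seq of poly(A) RNA had been done on 6 libraries of bEFs, each from the primary culture of 1 fetus aged 50 to 60 days. FT cells (FT_1, FT_2 and FT_3) came from cattle fetuses carrying fat-1, a nematode gene whose enzyme converts n-6 to n-3 fatty acids, and WT cells (WT_1, WT_2 and WT_3) from wild-type fetuses of the Luxi breed, so n = 3 per group. The promoter of the transgene and the breed of the FT fetuses are not given in the sources used here, and transgene expression was not analysed here. All fetuses had lost head, limbs, internal organs and bones before collagenase digestion, the cells were grown in serum-containing medium, and no selection of fibroblasts by a marker is described.

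Keratins form the intermediate filaments of epithelial cells. Each filament is built from pairs of a type I keratin (here KRT14, KRT15, KRT17, KRT18 and KRT19) and a type II keratin (here KRT5, KRT7 and KRT8). KRT5 with KRT14 is the pair of the basal layer of stratified epithelia such as epidermis, and KRT8 with KRT18 is the pair of simple epithelia. CDH1 encodes E-cadherin, the main adhesion molecule of epithelial cells, and TP63 encodes p63, a transcription factor needed for stratified epithelia. Fibroblasts are known for vimentin (VIM) filaments instead.

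One FT library stood apart from the rest. Over the 13482 genes tested, the SD of the log2 difference in depth-scaled counts was 0.91 between FT_1 and FT_2 and 0.91 between FT_1 and FT_3. It was 0.19 between FT_2 and FT_3 and 0.21 to 0.25 between WT libraries. Over 2-fold differences separated FT_1 from FT_2 in 13.9% of these genes and FT_2 from FT_3 in 0.163%. Total counts were 63366834 for FT_1, 48167642 for FT_2 and 54204446 for FT_3, against 69777641, 51310741 and 54271927 for WT_1, WT_2 and WT_3, so FT_1 was neither the shallowest nor the deepest library. Fold changes carried by FT_1 are therefore printed with and without it. Nearly every keratin value below depends on this library. FT_1 differed more from the WT libraries (SD 1.06 to 1.09) than from FT_2 and FT_3, in the direction of its label, and the study describes transgene DNA and mRNA as found in FT and not in WT cells. Whether that holds for the culture behind FT_1 alone was not analysed here.

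Epithelial keratin mRNA was found mainly in FT_1. The summed FPKM (fragments scaled by gene length and library total) of the 8 keratins was 857, 9.39 and 6.24 in FT_1, FT_2 and FT_3. In WT cells it was 0.08, 0.23 and 0.04. FT_2 and FT_3 thus lay between FT_1 and WT cells, near 1% of the FT_1 level, and the mean of FT cells was 290.8 with FT_1 and 7.82 without it. These are bulk samples, in which a larger number of cells of a type and more RNA per cell cannot be told apart.

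**Figure D1:**
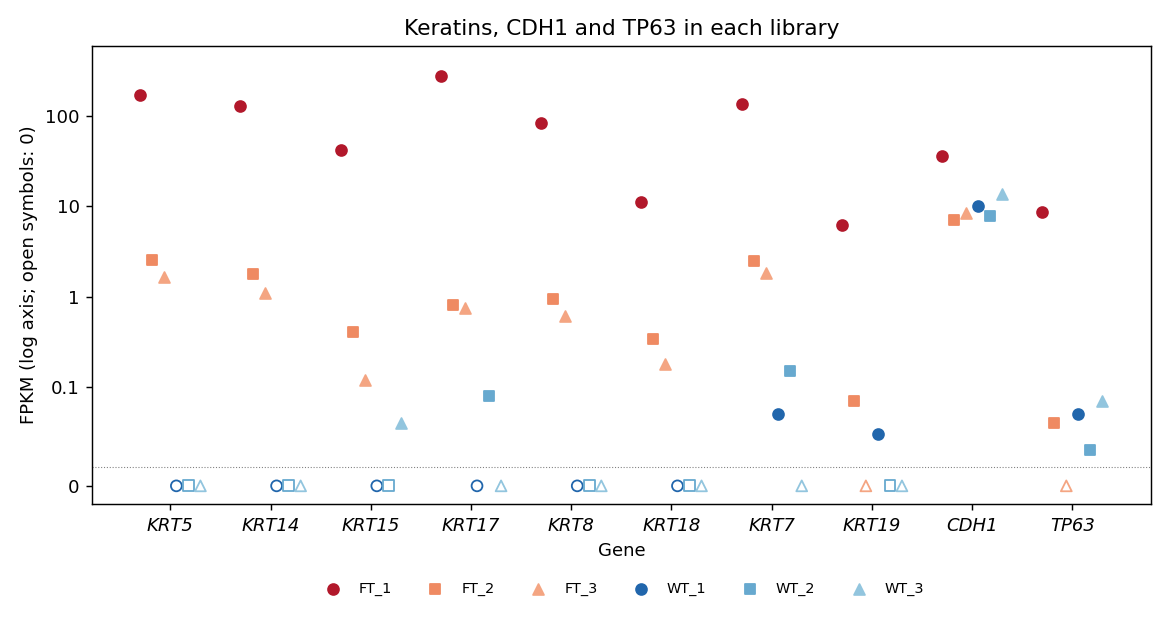
FPKM of the 10 genes in each of the 6 libraries on a log axis, with open symbols on the lowest line for a value of 0. FT_1 is the highest library for every gene, FT_2 and FT_3 lie between FT_1 and WT cells for KRT5, KRT14, KRT15, KRT17, KRT8, KRT18 and KRT7, and CDH1 is present in all libraries.

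Among the basal keratins, KRT5 had an FPKM of 172, 2.57 and 1.63 in FT_1, FT_2 and FT_3, and 0 in all WT libraries. Its counts were 28017, 319 and 228 in FT cells. The level in FT_1 was 66.7 times that in FT_2, and no WT library held a KRT5 count. A count of 0 was taken to allow up to 12 counts per library, because the counts piled up at 4 (500 loci in FT_1, against 163 at a count of 3 and 98 at 5) and the floor was set at 3 such steps. Against that floor in WT cells, KRT5 was at least 1881-fold higher in FT_1, 28.2-fold in FT_2 and 17.9-fold in FT_3. This floor covers counting error only.

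KRT14, the type I partner of KRT5, had an FPKM of 128, 1.76 and 1.11 in FT_1, FT_2 and FT_3 and 0 in all WT libraries. It followed KRT5 in the order of the libraries and was at least 1086-fold, 14.9-fold and 9.41-fold above the WT floor in FT_1, FT_2 and FT_3. KRT15, another type I keratin of basal cells, had 41.8, 0.41 and 0.12 in FT_1, FT_2 and FT_3, and 0, 0 and 0.04 in WT cells. The KRT15 counts behind the low values were 35 in FT_2, 12 in FT_3 and 4 in WT_3, so FT_3 stood at the floor.

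KRT17, a type I keratin of skin appendages and of wounded or activated epidermis, had the highest level of the 10 genes in FT_1. Its FPKM was 276, 0.81 and 0.74 in FT_1, FT_2 and FT_3, and 0, 0.08 and 0 in WT cells. KRT17 was the gene with rank 221 of all loci by FPKM in FT_1, where KRT5 had rank 337 and KRT14 rank 436. It was also the keratin with the widest gap inside FT cells, with FT_1 at 341 times the next library. Keratin genes are related in sequence, and since the assignment of reads shared by related genes is not stated, the division of counts among them is uncertain.

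Among the keratins of simple epithelia, KRT8 had an FPKM of 84.1, 0.95 and 0.61 in FT_1, FT_2 and FT_3 and 0 in all WT libraries. It was at least 949-fold, 10.7-fold and 6.88-fold above the WT floor. KRT18, its type I partner, had 11.2, 0.34 and 0.18 in FT_1, FT_2 and FT_3 and 0 in all WT libraries. The FPKM of KRT18 in FT_1 was therefore far below that of KRT8, and it was at least 92.3-fold, 2.81-fold and 1.49-fold above the WT floor, with only 32 and 19 counts in FT_2 and FT_3.

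KRT7, a type II keratin of glandular and other simple epithelia, had an FPKM of 138, 2.48 and 1.85 in FT_1, FT_2 and FT_3. In WT cells it had 0.05, 0.15 and 0, from 7, 14 and 0 counts. KRT7 was, of these 8 keratins, the one seen in the most WT libraries, and its FT and WT values did not overlap. KRT19, the smallest type I keratin, had 6.26, 0.07 and 0 in FT_1, FT_2 and FT_3, and 0.03, 0 and 0 in WT cells. Outside FT_1 its counts were 6 in FT_2, 4 in WT_1 and 0 elsewhere, all under the floor, so KRT19 was detectable above it in FT_1 alone. Over all 8 keratins, 19 of the 24 WT values were 0.

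CDH1 was the exception among the 10 genes. Its FPKM was 36.3, 7.11 and 8.41 in FT_1, FT_2 and FT_3, and 10.0, 7.83 and 13.9 in WT cells, with counts of 1570 or more in every library. CDH1 mRNA was therefore present in WT cells that held almost no mRNA of the 8 keratins. The edgeR log2 fold change of FT over WT was 0.85 (standard error 0.66) with FT_1 and -0.28 (standard error 0.20) without it, and the WT values overlapped those of FT cells. TP63 had an FPKM of 8.75, 0.04 and 0 in FT_1, FT_2 and FT_3, and 0.05, 0.02 and 0.07 in WT cells. Its counts were 2253 in FT_1, 8 and 0 in the other FT libraries and 16, 4 and 16 in WT cells, so TP63 was far above the floor in FT_1 alone. FT_1 had 125 times the next highest library, and no fold is given without FT_1 because the counts were near or under the floor.

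The keratins kept different proportions in the FT libraries. Type II keratins summed to an FPKM of 393 and type I keratins to 464 in FT_1, a type II to type I ratio of 0.848. The ratio was 1.77 in FT_2, from 6.0 and 3.39, and 1.90 in FT_3, from 4.09 and 2.15. KRT17 made up 32.2% of the summed FPKM of the 8 keratins in FT_1, but 8.63% in FT_2 and 11.9% in FT_3. KRT5 made up 20.0%, 27.4% and 26.1%, and KRT7 16.05%, 26.4% and 29.6%. In these shares, picked after their values were seen, FT_2 and FT_3 were closer to each other than to FT_1. This did not hold for KRT15, at 4.88%, 4.37% and 1.92% in FT_1, FT_2 and FT_3, or for KRT8, at 9.82%, 10.1% and 9.78%. Nor did it hold for KRT19, at 0.731%, 0.745% and 0%, whose counts in FT_2 and FT_3 were under the floor. As a share of all counts, the 8 keratins took 0.179% in FT_1 (95% Wilson interval 0.178 to 0.180%), 0.00201% in FT_2 (0.00188 to 0.00214%) and 0.00133% in FT_3 (0.00124 to 0.00143%). These intervals cover counting error only and are too narrow if the deposited counts are not independent fragments, which is uncertain, since counts of 4 were commoner than counts of 3 or 5 in every library. In WT cells the 8 keratins held 11, 22 and 4 counts.

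Relative to FT_1, the FPKM in FT_2 ranged from 0.293% for KRT17 to 3.04% for KRT18 over the 8 keratins and TP63, and that in FT_3 from 0% for KRT19 and TP63 to 1.61% for KRT18. CDH1 lay apart, at 19.6% in FT_2 and 23.2% in FT_3. KRT5, KRT14 and KRT8 were close together, at 1.498%, 1.37% and 1.13% in FT_2 and 0.95%, 0.866% and 0.725% in FT_3.

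**Figure D2:**
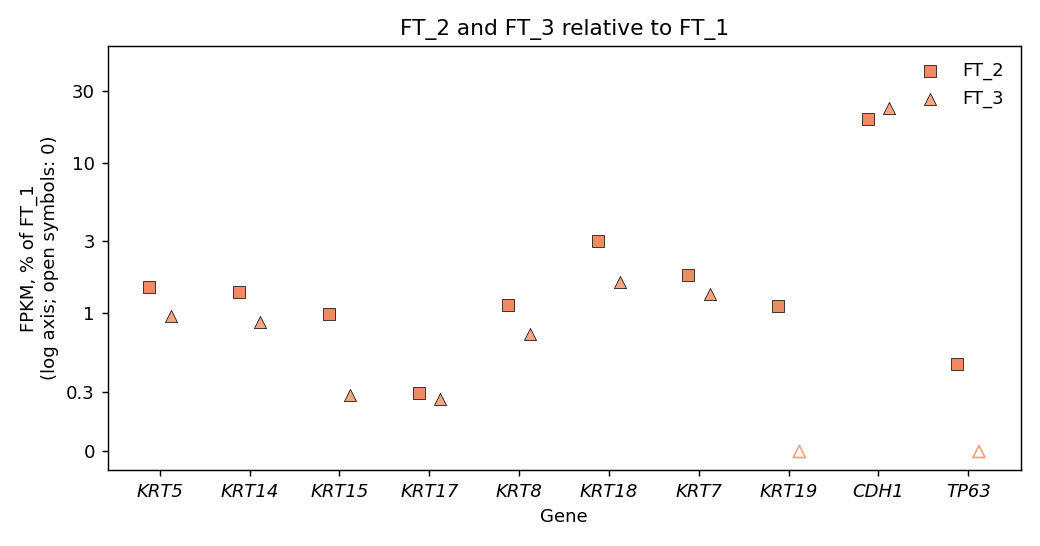
FPKM of each gene in FT_2 (squares) and FT_3 (triangles) as a percentage of its FPKM in FT_1, on a log axis with open symbols for 0. Most genes lie near 1%, KRT17 lies lowest of the genes detected in both libraries at 0.293% and 0.268%, and CDH1 lies highest at 19.6% and 23.2%.

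The keratin genes sit in a pair of clusters. KRT18, KRT8, KRT5 and KRT7 lie on chromosome 5 between 26998530 and 27689030, and KRT15, KRT19, KRT14 and KRT17 on chromosome 19 between 41721536 and 41840426, as the authors' table gives the positions. The submitters list the mouse build mm8 for these cattle libraries, which conflicts with the bovine gene identifiers, so the build of the positions is uncertain. In the order along each chromosome their identifiers are ENSBTAG00000001517, ENSBTAG00000000836, ENSBTAG00000038384 and ENSBTAG00000016165 on chromosome 5, and ENSBTAG00000004903, ENSBTAG00000004905, ENSBTAG00000007583 and ENSBTAG00000006806 on chromosome 19. CDH1 (ENSBTAG00000015991) lies on chromosome 18 between 36046665 and 36119368 and TP63 (ENSBTAG00000015460) on chromosome 1 between 77389337 and 77688590. The chromosome 5 interval held 11 other loci of the table, all of them described as keratins, and their summed FPKM was 29.4, 0.89 and 0.68 in FT_1, FT_2 and FT_3 and at most 0.04 in WT cells. The chromosome 19 interval held none. None of these 8 keratin genes shared its positions with another gene of the table.

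By the call rule of an adjusted p under 0.05 in edgeR's quasi-likelihood test and an absolute log2 fold change over 1, 1131 of the 13482 tested genes (8.39%) were higher and 1019 (7.56%) lower in FT cells. Without FT_1, 1482 of 13765 genes (10.8%) were higher and 1614 (11.7%) lower, and the number higher was 748 without WT_1 and 728 without WT_2. With library totals in place of TMM factors, 879 were higher and 1358 lower, and the median of all genes moved by -0.15 on the log2 scale. P-values in these fits measure the spread between 3 cultures per group. Of the 10 genes, 9 passed the filter on low counts and KRT19 did not, and the 7 other keratins passed through their counts in FT cells. For orientation, 3 of these 9 (KRT7, KRT15 and KRT17) passed the call rule with all libraries, beside the 8.39% of all genes. By the same edgeR test, 7 passed without FT_1 (10.8% of all genes), 0 passed without WT_1, WT_2 or WT_3, and 7 passed at an unadjusted p with the same fold threshold (10.2% of all genes). With the replicate block 5 passed (6.28% of all genes). With DESeq2 0 passed, as it gave no p for 9 of the 10. All FT libraries lay above all WT libraries in 7 of the 10, beside 21.8% of all tested genes. Since FT against WT values chose these genes, nothing is read from these counts.

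KRT7 had an edgeR log2 fold change of 9.53 (standard error 2.47), and 5.12 (standard error 0.64) without FT_1. It had 9.38, 10.63 and 8.97 without WT_1, WT_2 and WT_3. These folds are uncertain, since only WT_2 passed the floor of 12, with 14 counts. KRT15 and KRT17 had no WT count over the floor of 12, like KRT5, KRT8, KRT14 and KRT18, so only a bound is given. Against the floor the log2 fold change was at least 6.90 for KRT15 and 9.72 for KRT17 with FT_1, and at least 1.18 and 2.82 without it.

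A locus was said to stand apart in FT_1 when its FPKM there was at least 1 and at least 8 times that of the highest other library, a rule set after the values were seen. It held for 285 of the 17663 loci (1.61%) and for 9 of the 10 genes, with CDH1 the exception. The other genes of the epithelial programme were then described from 6 lists of other keratins, desmosomes, hemidesmosomes, adherens and tight junctions, surface proteins and transcription factors. Of their 94 loci, 27 stood apart in FT_1 and 55 were tested. Of these 55, 16 were called higher and 3 lower, beside 8.39% and 7.56% of all tested genes. Without FT_1, 17 were called higher and 7 lower, 14 and 3 of them in both fits. The number called higher was 6, 6 and 8 without WT_1, WT_2 and WT_3, and 6 with limma on log2(FPKM + 1). The genes called with every library left out in turn were KRT80, CD151, NECTIN2, CLDN4 and TFAP2C among the higher and KRT10 and KLF4 among the lower, a choice made after the values were seen. KRT6A, COL17A1, CLDN1, SFN and FOXA1, called higher, had no WT count over the floor of 12. They passed the filter on low counts through their FT counts, so their calls and adjusted p-values are given as a description.

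Of the other keratins, 13 of 46 symbols were found and 4 were tested. Both with and without FT_1, 2 were called higher and 1 lower, where all tested genes had 8.39% and 7.56% with FT_1. Their median log2 fold change was 1.61, against 0.03 for all tested genes, and 1.12 against -0.02 without FT_1. KRT80, a type II keratin of differentiating epithelia, was the most abundant by mean FPKM over all libraries. Its FPKM was 12.1, 3.91 and 5.19 in FT cells and 0.39, 0.57 and 1.11 in WT cells. It rose in FT cells (edgeR log2 fold change 3.50 ± 0.60 SE, adjusted p = 0.00652), and had 2.90 without FT_1. KRT10, the type I keratin of suprabasal epidermis, moved the other way, from 2.89 ± 0.338 (SD, n = 3) in WT cells to 0.477 ± 0.280 in FT cells (edgeR log2 fold change -2.44 ± 0.45 SE, adjusted p = 0.00849). KRT10 had the highest WT level of the keratins listed by symbol, and its log2 fold change was -3.01 without FT_1.

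KRT6A, a type II keratin of wounded and appendage epithelium, had 8.11, 0.66 and 0.56 in FT_1, FT_2 and FT_3, and 0, 0.03 and 0 in WT cells. It was called higher (edgeR adjusted p = 0.0148), with a log2 fold change of at least 5.32 against the floor of 12 counts and at least 2.96 without FT_1, and its adjusted p lay between 1.81e-04 and 0.0658 with 1 library left out, missing the threshold without WT_1, WT_2 or WT_3, and neither DESeq2 nor limma on log2(FPKM + 1) called it. KRT6A has close copies, among which counts may be divided. The hair keratin KRT85 had an FPKM of 3.79 in FT_1 and 0 in the 5 other libraries, and KRT23 had 2.80 in FT_1 and at most 0.09 elsewhere, neither passing the filter. KRT20, of intestinal epithelium, was at 0.19 in FT_1 and 0 elsewhere.

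Desmosomes anchor keratin filaments at cell contacts. Of 14 loci found among 16 symbols, 8 were tested and 1 was called higher, beside 8.39% of all tested genes (2 higher and 1 lower without FT_1). The median log2 fold change was 2.99 with FT_1 and 0.19 without it, once the genes at 0 in WT cells were set at their bound. Their summed FPKM was 203, 107 and 108 in FT_1, FT_2 and FT_3, and 93.8, 94.8 and 114 in WT cells. The gene called was JUP, encoding plakoglobin, with 38.5 ± 6.85 (SD, n = 3) in FT cells against 21.1 ± 0.764 in WT cells (edgeR log2 fold change 1.03 ± 0.15 SE, adjusted p = 0.00422). Its log2 fold change was 0.93 to 1.18 with 1 library left out, under the fold threshold without FT_2, FT_3 or WT_1, and the call was also lost with library totals and with limma. PPL, encoding periplakin, was the most abundant by mean FPKM over all libraries, though not in FT_1. It was at 48.6 ± 15.5 in FT cells and 64.5 ± 11.6 in WT cells.

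Among the other desmosome genes, 7 were far higher in FT_1 than in any other library, as the keratins were. The genes named in this paragraph were chosen after their values were seen. Desmoplakin (DSP), which links keratin to the junction, had an FPKM of 26.0, 0.03 and 0.08 in FT_1, FT_2 and FT_3 and at most 0.03 in WT cells. The desmosomal cadherins DSC3 and DSG2 had 16.1 and 15.5 in FT_1 and at most 0.04 elsewhere. In all, 7 of the 14 loci stood apart in FT_1, the others being DSC2, PKP1, PKP2 and DSG3. DSG1, of the upper epidermis, was at 0.08 in FT_1 and 0 elsewhere. PERP, a desmosome membrane protein gene, had 45.5, 0.62 and 0.53 in FT_1, FT_2 and FT_3, but 8.85, 10.3 and 9.15 in WT cells. PERP had a log2 fold change of 0.86 (standard error 1.58) with FT_1 and -3.85 (standard error 0.15) without it, where it was called lower.

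Hemidesmosomes anchor keratin filaments to the basement membrane. All 9 genes were tested and 2 were called higher, beside 8.39% of all tested genes. Without FT_1, 4 were called higher and 1 lower. The median log2 fold change was 1.42 with FT_1 and 0.28 without it. The summed FPKM was 439 in FT_1, 148 and 150.3 in the other FT libraries and 130.4 to 146 in WT cells. CD151, a tetraspanin gene, was the most abundant by mean FPKM over all libraries, though PLEC was higher in WT cells. CD151 rose in FT cells, from 33.1 ± 0.820 (SD, n = 3) to 79.6 ± 32.2 (edgeR log2 fold change 1.42 ± 0.27 SE, adjusted p = 0.00899), and had 1.05 without FT_1. PLEC and DST, which encode plakin linkers also used by other cells, were at 47.3 ± 9.12 and 21.9 ± 3.58 in FT cells and 58.1 ± 5.0 and 26.1 ± 2.71 in WT cells, and neither was called.

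COL17A1, the transmembrane collagen of basal keratinocytes, had an FPKM of 79.4, 0.11 and 0.08 in FT_1, FT_2 and FT_3, and 0.01, 0 and 0 in WT cells. It was called higher (edgeR adjusted p = 0.0467), with a log2 fold change of at least 9.5 against the floor and at least 1.41 without FT_1, and an edgeR adjusted p of 0.00258 to 0.192 when 1 library was left out, over the threshold without WT_1, WT_2 or WT_3. It was not called with DESeq2, with limma or without the filter. COL17A1 passed the filter through its FT counts, so its call is a description. ITGB4 and LAMB3, named after their values were seen, also stood apart in FT_1, at 40.9 and 24.9 there and at most 0.65 and 1.14 elsewhere. ITGA6, the integrin partner of ITGB4 and likewise named afterwards, had 75.7 in FT_1, 6.46 and 6.48 in the other FT libraries and 14.5 to 18.4 in WT cells. As with PERP, ITGA6 was highest in FT_1 and lowest in FT_2 and FT_3, and without FT_1 it was called lower (edgeR log2 fold change -1.17 ± 0.10 SE).

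For the adherens and tight junction genes, all 25 loci were found and 17 tested. Of these, 5 were called higher and 1 lower, beside 8.39% and 7.56% of all tested genes, and 4 higher and 3 lower without FT_1. The median log2 fold change was 1.16 with FT_1 and 0.12 without it, and 4 loci stood apart in FT_1. The summed FPKM was 331, 274 and 269 in FT cells and 382, 373 and 398 in WT cells. CTNNB1, encoding beta-catenin, was the most abundant by mean FPKM over all libraries, though CTNNA1 was higher in FT cells. CTNNB1 fell in FT cells, from 173 ± 4.62 (SD, n = 3) to 75.1 ± 13.3 (edgeR log2 fold change -1.05 ± 0.13 SE, adjusted p = 0.00255). Without FT_3 its log2 fold change was -0.97, short of the fold threshold. CTNNA1 and TJP1 were at 101 ± 4.47 and 27.7 ± 2.71 in FT cells and 128 ± 7.66 and 27.2 ± 0.735 in WT cells, and neither was called.

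Among claudin genes, which encode tight junction strands, CLDN4 was higher in all FT libraries. Its FPKM was 3.65, 3.39 and 3.82 in FT cells and 0.20, 0.09 and 0.33 in WT cells (edgeR log2 fold change 4.23 ± 0.47 SE, adjusted p = 0.00184), with 4.23 without FT_1. This gene, unlike the keratins, had like levels in FT_1, FT_2 and FT_3. CLDN1 had 6.35, 0.56 and 0.32 in FT cells and at most 0.09 in WT cells (edgeR adjusted p = 0.0416, log2 fold change at least 3.88 against the floor). OCLN had 1.95, 0.31 and 0.20 against 0.03 to 0.09 (edgeR log2 fold change 3.69 ± 1.04 SE, adjusted p = 0.0353). Without FT_1 the log2 fold change of CLDN1 was at least 1.46 against the floor, and the fitted value of OCLN was 2.03. Both calls rested on all WT libraries, since the edgeR adjusted p reached 0.124 and 0.117 with 1 library left out and exceeded the threshold without WT_1, WT_2 or WT_3. Limma did not call CLDN1, and it tested OCLN only with no FPKM minimum, where OCLN was not called. CLDN1 was also lost without FT_2, without the filter and with the replicate block. CLDN3 and CLDN7 were near 0 throughout, at no more than 0.06 and 0.15.

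Epithelial surface genes were low outside FT_1. Of 16 loci, 7 were tested and 2 were called higher with and without FT_1, beside 8.39% and 10.8% of all tested genes. The median log2 fold change was 1.51 with FT_1 and 0.16 without it. The summed FPKM was 78.8 in FT_1 and 5.49 to 6.72 in the 5 other libraries, and 5 loci stood apart in FT_1. SPINT2, a protease inhibitor gene, was the most abundant, with 26.7, 5.22 and 5.26 in FT cells and 5.30, 4.76 and 4.43 in WT cells (edgeR log2 fold change 1.51 ± 0.68 SE, 0.29 without FT_1, not called by edgeR but called higher by DESeq2). SFN, encoding the 14-3-3 protein stratifin of keratinocytes, had 22.2, 0.79 and 0.40 in FT cells and 0.12, 0.16 and 0.05 in WT cells (edgeR adjusted p = 0.0395, log2 fold change at least 5.69 against the floor), with at least 2.0 without FT_1. LSR had 1.18, 0.40 and 0.25 against 0.05, 0.17 and 0.12 (edgeR log2 fold change 2.58 ± 0.76 SE, adjusted p = 0.0407), with 1.71 without FT_1. With 1 library left out, the edgeR adjusted p reached 0.133 for SFN and 0.125 for LSR, over the threshold without WT_1, WT_2 or WT_3 for both and without FT_2 for LSR. Neither was called with the replicate block, and LSR was not called without the filter. DESeq2 and limma did not call SFN. Limma tested LSR only with no FPKM minimum, where it was not called.

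ESRP1, a splicing regulator of epithelial cells, had an FPKM of 15.7, 0.04 and 0 in FT_1, FT_2 and FT_3 and at most 0.13 in WT cells. It was not called, at a log2 fold change of 6.11 (standard error 2.71) with all libraries. As for TP63, no fold is given without FT_1, because its counts in FT_2 and FT_3 were 8 and 0, under the floor. EPCAM, the defining surface marker of many simple epithelia, was at 0.57 in FT_1 and at 0 in the 5 other libraries. ST14 and AP1M2 likewise had 0.62 and 0.12 in FT_1 and 0 elsewhere. The high keratins of FT_1 thus stood beside a low level of EPCAM.

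**Figure D3:**
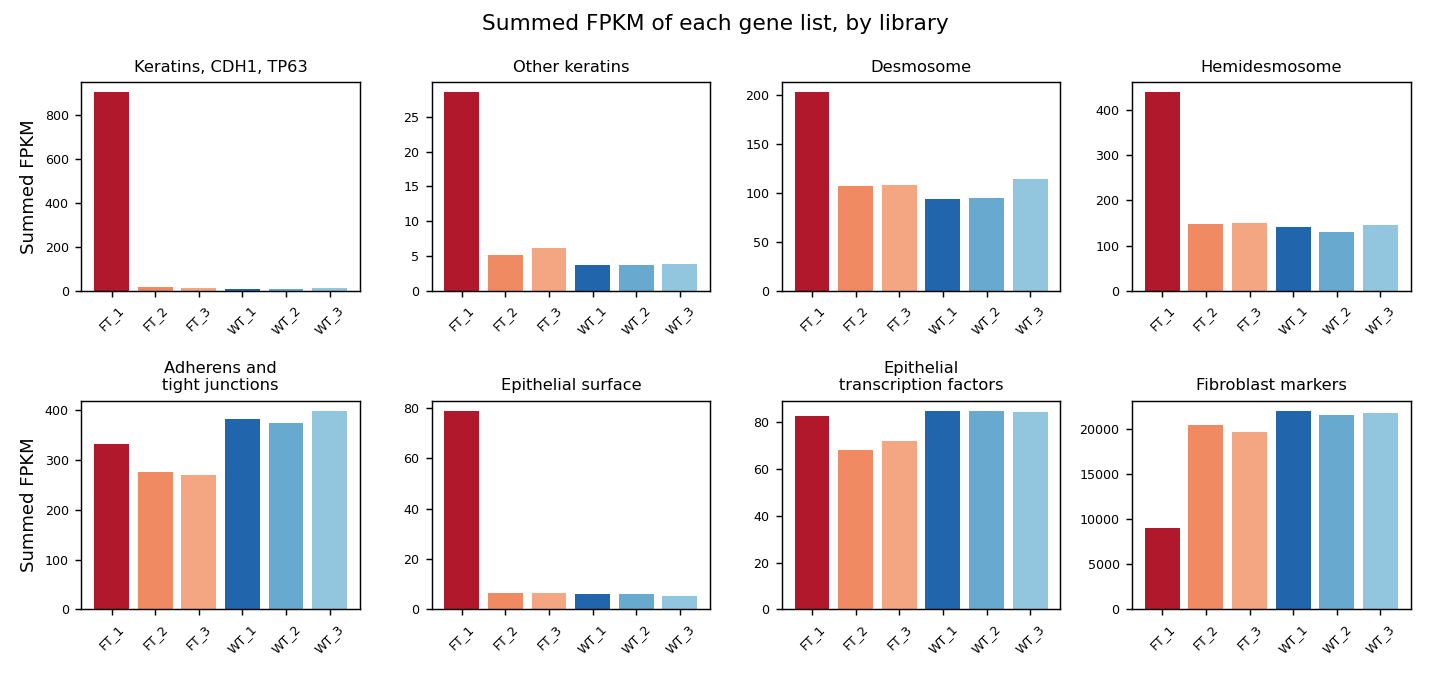
Summed FPKM of 8 gene lists in each library, as bars from 0 with a separate scale for each list. The 10 keratin and epithelial genes, other keratins, desmosome, hemidesmosome and epithelial surface lists are highest in FT_1, while the fibroblast list is lowest in FT_1, at 9038 against 19707 to 22012 in the other libraries.

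Of the 17 epithelial transcription factor genes, 10 were tested. Of these, 4 were called higher and 1 lower, beside 8.39% and 7.56% of all tested genes, and 3 higher and 1 lower without FT_1. The median log2 fold change was 1.44 with FT_1 and 0.82 without it, and 4 loci stood apart in FT_1. The summed FPKM was 82.7, 68.4 and 71.9 in FT cells and 84.4 to 85.0 in WT cells. KLF4, a factor of epidermal differentiation that fibroblasts also express, was the most abundant by mean FPKM over all libraries, though TFAP2A had a higher mean in FT cells. KLF4 fell from 64.3 ± 1.25 (SD, n = 3) in WT cells to 19.7 ± 2.84 in FT cells (edgeR log2 fold change -1.55 ± 0.13 SE, adjusted p = 9.52e-04). TFAP2C, an AP-2 factor of early ectoderm, had 11.3, 6.24 and 5.56 in FT cells and 0.73, 0.63 and 0.85 in WT cells (edgeR log2 fold change 3.53 ± 0.32 SE, adjusted p = 0.00114), with 3.17 without FT_1.

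The related gene TFAP2A had 11.6, 27.3 and 26.3 in FT cells and 8.77, 8.56 and 9.86 in WT cells (edgeR log2 fold change 1.43 ± 0.34 SE, adjusted p = 0.0192). FT_1 was here the lowest FT library. The TFAP2A call held only without FT_1 (log2 fold change 1.73) among the 6 fits with 1 library left out, where the edgeR adjusted p reached 0.0807, and it was lost in limma with no filter. KLF5 had 27.8, 14.0 and 16.3 in FT cells and 9.36 to 10.3 in WT cells (edgeR log2 fold change 1.13 ± 0.25 SE, adjusted p = 0.0164), but 0.79 without FT_1, under the fold threshold. Its edgeR adjusted p reached 0.0712 with 1 library left out, the call was lost without WT_1, WT_2 or WT_3, and it was lost with library totals and with limma. FOXA1 was called higher at very low levels, 0.44, 0.16 and 0.33 in FT cells and 0, 0 and 0.04 in WT cells (edgeR adjusted p = 0.0307, log2 fold change at least 2.14 against the floor). The call was lost without the filter, with the replicate block and without FT_2, FT_3, WT_1 or WT_2, where its edgeR adjusted p reached 0.10. Limma tested FOXA1 only with no FPKM minimum, where it was not called. GRHL2 and OVOL2, factors that maintain epithelial genes, were at 0.03 in FT_1 and 0 elsewhere.

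**Figure D4:**
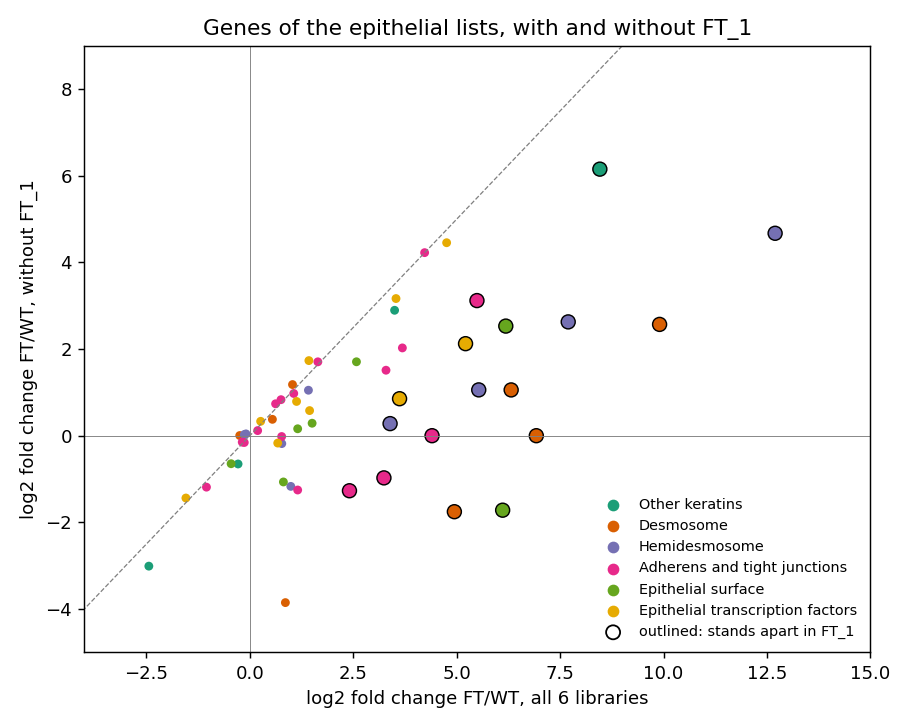
Log2 fold change of FT over WT cells for the tested genes of the 6 epithelial lists, with all 6 libraries (horizontal) and without FT_1 (vertical), where genes at 0 in a group are drawn at their bound and the dashed line marks equal values. Outlined genes, which stand apart in FT_1, lie below the line, while genes such as CLDN4, at 4.23 on both axes, lie on it.

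Among transcription factors listed as repressors of CDH1 and other epithelial genes, 11 of 12 symbols were found at 12 loci and 11 loci were tested. Of these, 2 were called higher and 1 lower (3 and 1 without FT_1), beside 8.39% and 7.56% of all tested genes. The median log2 fold change was 0.26 with FT_1 and 0.51 without it, and none stood apart in FT_1. SNAI2, encoding Slug, fell to 7.73, 22.6 and 26.5 in FT_1, FT_2 and FT_3, against 111, 116 and 96.8 in WT cells (edgeR log2 fold change -2.34 ± 0.46 SE, adjusted p = 0.0104), and had -1.97 without FT_1. SNAI1, encoding Snail, moved the other way, from 3.76 ± 0.267 (SD, n = 3) in WT cells to 13.4 ± 2.77 in FT cells (edgeR log2 fold change 1.99 ± 0.16 SE, adjusted p = 8.87e-04). FOXC2 had 3.61, 0.60 and 0.47 in FT cells and 0.09 to 0.30 in WT cells (edgeR log2 fold change 3.24 ± 0.98 SE, adjusted p = 0.0440), with 1.73 without FT_1, but its adjusted p reached 0.147 with 1 library left out, and the call was lost without WT_1, WT_2 or WT_3, without the filter, with limma and with the replicate block. PRRX1, the most abundant, had 136 in FT_1 and 196 to 251 elsewhere, and TWIST2 had 9.74 in FT_1, 79.2 and 74.7 in FT_2 and FT_3 and 57.4 to 59.5 in WT cells. Neither was called, and in both FT_1 was the lowest of all libraries. The sum of the list was 253 in FT_1 and 492 to 521 in the 5 other libraries.

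Of 14 other intermediate filament genes, 10 were tested. Of these, 1 was called higher and 2 lower (2 and 3 without FT_1), beside 8.39% and 7.56% of all tested genes. The median log2 fold change was 0.32 with FT_1 and -0.59 without it. VIM, the filament gene of mesenchymal cells, had an FPKM of 1244, 3850.2 and 4171 in FT_1, FT_2 and FT_3, and 7891, 8177 and 7312 in WT cells. The groups did not overlap, FT_1 was lowest, and VIM was not called by edgeR (log2 fold change -1.17 ± 0.46 SE, adjusted p = 0.0902), with -0.79 without FT_1, while DESeq2 and limma with a filter called it lower. Summed keratin FPKM thus remained below VIM in FT_1. LMNA and NES were at 244 ± 92.8 (SD, n = 3) and 39.3 ± 25.8 in FT cells and 521 ± 13.9 and 19.8 ± 2.18 in WT cells, and edgeR called neither, though LMNA was called lower with library totals and with limma. Without FT_1, NES was called higher, at a log2 fold change of 1.62 (standard error 0.09). DES, the muscle filament gene, rose from 0.0233 ± 0.0404 to 4.31 ± 1.31 (edgeR adjusted p = 0.00488, log2 fold change at least 5.63 against the floor). It passed the filter on low counts through its FT counts, so its call is a description. NEFH, a neurofilament gene, fell from 6.83 ± 1.298 to 0.30 ± 0.182 (edgeR log2 fold change -4.33 ± 0.58 SE, adjusted p = 0.00299) and the lamin gene LMNB1 from 26.7 ± 4.64 to 6.87 ± 1.302 (edgeR log2 fold change -1.80 ± 0.18 SE, adjusted p = 0.00137).

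Fibroblast markers were found in all libraries, at their lowest sum in FT_1, though not each of them was lowest there. All 14 were tested and 1 was called higher (3 without FT_1), beside 8.39% of all tested genes. The median log2 fold change was 0.06 with FT_1 and 0.14 without it. Their summed FPKM was 9038, 20407 and 19707 in FT_1, FT_2 and FT_3, and 22012, 21529 and 21786 in WT cells. VIM was the most abundant by mean FPKM over all libraries, but DCN had a higher mean in FT cells. S100A4 had 1775 in FT_1 and 2598 to 4106 elsewhere, and DCN 1804 in FT_1, 4092 and 3769 in the other FT libraries and 2054 to 2299 in WT cells. DCN was called higher without FT_1 (edgeR log2 fold change 1.01 ± 0.07 SE). PDGFRA was the gene called, at 218, 166 and 141 in FT cells and 93.4 ± 6.36 (SD, n = 3) in WT cells (edgeR log2 fold change 1.06 ± 0.17 SE, adjusted p = 0.00530), with 0.89 without FT_1, under the fold threshold, and no call with library totals or with limma. POSTN and THY1, named after their values were seen, went against the sum and were highest in FT_1, at 212 against 34.0 to 39.6 and 413 against 330 to 368.5 elsewhere. The part of these cells in the keratin values was not tested.

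Mesothelium, an epithelium of body cavities that carries KRT7, KRT8, KRT18 and KRT19, was followed with 7 of 10 marker symbols. Of these, 3 loci were tested and 1 was called higher, beside 8.39% of all tested genes. The summed FPKM was 290.0 in FT_1, 162 and 165 in the other FT libraries and 125 to 155 in WT cells. PDPN was the most abundant by mean FPKM over all libraries, at 79.9 in FT_1, where MSLN was higher, and 116 to 152 elsewhere. MSLN, encoding mesothelin, had 199, 44.9 and 46.2 in FT cells and 2.08, 3.18 and 3.06 in WT cells (edgeR log2 fold change 5.26 ± 0.74 SE, adjusted p = 0.00346), with 4.21 without FT_1. UPK1B had 8.86 in FT_1 and at most 0.03 elsewhere. The defining factor WT1 was at 0 in all FT libraries and at most 0.05 in WT cells. The part of such cells in the keratin values was not tested.

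Smooth muscle markers had a higher sum in each FT library than in WT cells, with FT_1 the lowest of the FT libraries. All 9 were tested and 6 were called higher (7 without FT_1), beside 8.39% of all tested genes (10.8% without FT_1). The median log2 fold change was 2.59 with FT_1 and 2.72 without it. Their summed FPKM was 2570, 3878 and 3737 in FT_1, FT_2 and FT_3, and 1103 to 1233 in WT cells. ACTA2, the most abundant by mean FPKM over all libraries, rose from 559.9 ± 62.9 (SD, n = 3) to 2057 ± 594 (edgeR log2 fold change 2.04 ± 0.27 SE, adjusted p = 0.00278). ACTG2 had a log2 fold change of 4.69 (standard error 0.16) and CNN1 of 3.05 (standard error 0.18). TAGLN was at 737 ± 55.1 in FT cells and 520.5 ± 14.8 in WT cells, under the fold threshold. MYH11, named like LMOD1 after the values were seen, was an exception among them, at 0.07 in FT_1, 1.58 and 1.46 in FT_2 and FT_3 and 0.12 to 0.18 in WT cells, and edgeR called it higher without FT_1 but not with all libraries, where DESeq2 did. In ACTA2 and LMOD1 too FT_1 lay below the other FT libraries, at 1372 against 2421 and 2378 and at 32.8 against 61.1 and 53.8.

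Markers of endothelial cells, white blood cells and neural or skeletal muscle cells had far lower sums than fibroblast markers in every library. Of 8 endothelial loci, 4 were tested and 0 were called by edgeR, 0 at an unadjusted p with the same fold threshold and 0 with DESeq2, and 2 (ERG and PECAM1) were called lower without FT_1. The endothelial sum was 7.11, 0.90 and 1.12 in FT_1, FT_2 and FT_3, and 1.99 to 2.93 in WT cells, with ERG the most abundant at 6.03 in FT_1. VWF had 0.21 to 0.27 in FT cells and 0.28 to 0.37 in WT cells. KDR was at 0 in FT cells and at most 0.03 in WT cells, CDH5 was at most 0.10 and CLDN5 at most 0.05.

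Of 6 white blood cell loci, 4 were tested and 1 was called lower (2 without FT_1), beside 7.56% of all tested genes. The sum was 4.98, 10.3 and 9.78 in FT_1, FT_2 and FT_3, and 23.1 to 24.6 in WT cells. LAPTM5 was the most abundant by mean FPKM over all libraries, though CD14 was higher in FT_1. LAPTM5 had 0.92 in FT_1, 6.20 and 6.26 in the other FT libraries and 15.4 to 16.6 in WT cells. EdgeR called it lower without FT_1 but not with all libraries, where DESeq2 and limma did. CD68, a macrophage gene, was at 1.04 ± 0.291 (SD, n = 3) in FT cells against 2.77 ± 0.230 in WT cells (edgeR log2 fold change -1.24 ± 0.29 SE, adjusted p = 0.0185), a call lost without FT_2, WT_1, WT_2 or WT_3, where the adjusted p reached 0.0768, and also with limma on log2(FPKM + 1) and with the replicate block. CD14, a monocyte gene, had 3.29, 3.05 and 2.01 in FT cells and 4.72, 3.78 and 5.09 in WT cells, and was not called.

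Of 9 neural and skeletal muscle symbols, 3 were found and tested, with 0 called by edgeR, 0 at an unadjusted p with the same fold threshold and 0 with DESeq2, and with 2 (TUBB3 and MYF5) called lower without FT_1. The sum was 14.98 in FT_1, 7.61 and 6.44 in the other FT libraries and 12.9 to 15.04 in WT cells. S100B was the most abundant, at 7.66 ± 4.61 (SD, n = 3) in FT cells against 9.48 ± 0.410 in WT cells. The part of such cells in the keratin values was not tested.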

How the data were processed

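RNA was measured in bEFs of 3 FT and 3 WT fetuses, 1 library per fetus. The authors mapped paired reads with HISAT, assembled transcripts with StringTie and used edgeR. Their processing notes list HISAT2 2.0, StringTie 1.3.0 and Bowtie 0.12.2. They also list the mouse build mm8, which conflicts with the bovine gene identifiers of the table, so its build is uncertain. The authors deposited unscaled counts for each locus, 1 column per library. The FPKM values deposited beside them are fragments scaled by gene length and library total. How reads shared by related or overlapping genes were counted is not stated, so values of close paralogs are uncertain. Genes of the sex chromosomes and the transgene were not analysed here.

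Counts were fitted with edgeR 4.0.16 in R 4.3.3 (quasi-likelihood test, filterByExpr, TMM factors, group as the only term), after the code had been tested on simulated data. Genes were called at a Benjamini-Hochberg adjusted p under 0.05 over all tested genes with a log2 fold change above 1 or under -1. The standard error is the absolute log2 fold change divided by the square root of the F statistic. A count of 0 was read as up to 12 counts per library, 3 steps of 4, since 4 was the commonest of the low counts. Medians of lists used this floor for genes at 0 in a group. Where no WT count was over 12, the text gives the log2 fold change of depth-scaled counts as a bound against the floor, a choice made after seeing the data, and calls still rest on the fit. Intervals are Wilson intervals at 95%.

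The alternatives were median-ratio size factors, library totals, no filter, DESeq2 1.42.0, limma 3.58.1 on log2(FPKM + 1) or log2(FPKM + 0.1) with a mean FPKM of at least 0.5 or no minimum, a replicate block, an unadjusted p, no fold threshold, FPKM rescaled to a common total and each library left out. The rule for loci that stand apart in FT_1 (FPKM of at least 1 and at least 8 times the highest other library), and its alternatives of 4 and 16 times, were chosen after seeing the data. Tables and plots were made with Python 3.11.15, pandas 2.3.3 and matplotlib 3.10.9.

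Named genes were all 10 members, and from each other list the 3 genes with the highest mean FPKM, up to 3 called genes per direction with the largest absolute log2 fold change, other keratins with a mean FPKM of at least 0.5, and defining markers at or near 0. Others were named after their values were seen. The members and lists were chosen with earlier results of these data known.

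Some genes of the lists are not reported here by name, though the counts and sums of their lists include them.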

Additional observations from a re-analysis of the deposited data

How the results depend on the processing

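Over all genes, 1131 were called higher and 1019 lower. The number higher was 423 with limma on log2(FPKM + 1), 671 with log2(FPKM + 0.1), 399 with limma and no filter, 2714 with no fold threshold and 728 to 1482 with 1 library left out. The number lower was 2547 with no fold threshold and 713 to 1614 with 1 library left out. Of the 10 keratin and epithelial genes 9 were tested, and 3 of these passed the call rule (8.39% of all tested genes). The number was 0 with DESeq2, and 0 with limma on log2(FPKM + 1) with or without a filter. At an unadjusted p with the same fold threshold it was 7 (10.2% of all tested genes). It was 0 to 7 with 1 library left out, with the 7 reached without FT_1 (10.8% of all tested genes). These genes were chosen by their FT and WT values, so nothing is read from these counts. The epithelial lists had 16 genes called higher, against 6, 7 and 5 in the 3 limma fits and 6 to 17 with 1 library left out, and 3 called lower, against 2 to 7. In the main fit, 8.39% of all tested genes were called higher and 7.56% lower. The median log2 fold change of the tested members was 8.70, with 2.35, 4.61 and 2.35 in the limma fits and 3.78 to 9.27 with 1 library left out, and 8.50 when, after seeing the data, each member with no WT count over 12 was set at its bound. The mean summed keratin FPKM of WT cells was 0.117 (0.06 to 0.155 with 1 library left out), and 0.252 once each library was rescaled to a common total. That of FT cells was 290.8 (7.82 to 433 with 1 library left out), and 714 once rescaled. The 285 loci that stand apart in FT_1 were 451 at 4 times and 201 at 16 times the highest other library. For these shifts the cause was not tested. FT and WT libraries with the same number did not deviate together (correlations -0.0202, -0.0266 and 0.0407, with 2 of 6 libraries correlating best with their own number), so they were not treated as pairs. With the replicate block, 846 genes were called higher and 804 lower, and 5 members passed beside 6.28% of all tested genes (likewise only a description). In this fit 13 and 3 epithelial genes were called higher and lower, and the median of the members was 8.50. That median is the bound of KRT8, and the main value of 8.70 that of KRT14. Both bounds are fixed under the block, so nothing is read from their closeness. Under the alternatives, 360 counts of called genes in a list stayed within the limits set for them and 88 moved. For the log2 fold changes of members 91 stayed and 35 moved. The bounds of KRT5, KRT8, KRT14 and KRT18 could not change with the scaling, filter, DESeq2 or block, so stability is not read from this tally. Counts in WT cells were too low for any fold of KRT5, KRT8, KRT14, KRT15, KRT17 or KRT18 other than a bound.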

Other observations

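Keratin loci without a symbol were looked up after the values of the keratins had been seen. On chromosome 5, a locus described as keratin, type II cuticular Hb1-like (ENSBTAG00000052798) had an FPKM of 6.65 in FT_1, from 627 counts, and 0 in the 5 other libraries. Its neighbours ENSBTAG00000054136 and ENSBTAG00000054816, described as Hb1 and Hb1-like, had 4.51 and 3.77 in FT_1 and 0 elsewhere. These are hair keratins, as is KRT85. A locus described as keratin 6C (ENSBTAG00000040019) had 1.80 in FT_1, 0.23 in FT_2, 0.12 in FT_3 and 0 in WT cells. How reads shared by such loci were counted is not stated.

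Among the loci that stand apart in FT_1, genes outside the epithelial lists were also picked after their values were seen. CHI3L1, encoding a chitinase-like glycoprotein, had an FPKM of 487 in FT_1, at most 0.35 in the other FT libraries and 3.79 to 6.10 in WT cells. The complement gene C3 had 413 in FT_1, 10.5 and 10.9 in FT_2 and FT_3 and 1.16 to 1.70 in WT cells, and SAA3, an acute-phase gene, had 339 in FT_1 and at most 1.38 elsewhere. SFRP2, a secreted Wnt modulator gene, had 332 in FT_1 and 3.02 to 5.0 elsewhere. As with the keratins, the level of these genes in FT_1 was far above that in every other library. In FT_2 and FT_3, C3 lay above WT cells, as most of the keratins did, while CHI3L1 lay below them.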
